A study of Mus musculus with 8 samples.

Results

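The KMT2 genes Kmt2a, Kmt2b, Kmt2c, Kmt2d and Kmt2e encode the mixed-lineage leukaemia family of SET-domain proteins, and their transcripts were examined here for N6-methyladenosine (m6A). The 5 genes were taken by name from the 5987 gene names of the 4 deposited peak lists, which gave 177 of 38927 peaks. RNA was from gastrocnemius, a calf muscle, of male C57BL/6 mice aged 10 weeks, either denervated for 14 days or from the innervated contralateral leg, labelled untreated. In m6A MeRIP-seq, RNA captured with an antibody against m6A (the IP library) is sequenced beside uncaptured input RNA. The series has 8 libraries, that is, an IP and an input library for each of 2 innervated and 2 denervated replicates, and each list was called from 1 IP library against the input of the same group and number. The control being the opposite leg, the groups may share animals. The labels do not say whether the replicates were separate animals or which legs belong together, so a p-value here covers just the variation among these libraries, possibly technical.

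KMT2 proteins deposit methyl groups on lysine 4 of histone H3 (H3K4). KMT2A and KMT2B work with menin, mainly at promoters, KMT2C and KMT2D act mainly at enhancers in a complex with the demethylase KDM6A, and KMT2E is a divergent member for which strong catalytic activity has not been shown. The m6A mark is placed on RNA while it is transcribed and is common in long internal exons and around stop codons, where it influences splicing, translation and decay. KMT2D is known to take part in enhancer activation during muscle differentiation.

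Read counts were not analysed here, so depth and transcript level are unknown for every library. A missing peak therefore does not show that a transcript was unmethylated. In bulk tissue, fewer cells of a type and less RNA per cell cannot be told apart. The lists held 9327 to 10300 peaks, with median lengths of 249 to 250 bases. Of 12 muscle fibre markers, 0 had a peak in any list, against 3 of 4 endothelial, 2 of 4 fibroblast and matrix, 2 of 4 satellite cell, 1 of 4 Schwann cell, 1 of 4 blood and 0 of 4 macrophage markers; peaks do not measure expression, and the tissue label could not be checked in this way.

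Peaks were spread along the KMT2 transcripts in a few dense stretches, and most of these stretches recurred in every library. Linking KMT2 peaks of different lists wherever their blocks had 1 or more bases in common, strand by strand, gave 46 regions. Of these, 25 (54.3%) were called in all 4 libraries, against a background of 34.6% of the 13116 regions of all genes. With reciprocal overlap of at least 50% in place of 1 base, 21 of 75 KMT2 regions (28.0%) were in all 4 libraries, against 20.3% of all regions. By the overlap of 1 base, among the 467 genes with at least 5 regions, the members included, the share was 32.6%. A further 5 KMT2 regions were called in 3 libraries, 8 in 2 and 8 in 1. Kmt2c had 8 of 9 regions in all 4 libraries, Kmt2d had 7 of 11, Kmt2a had 7 of 15, Kmt2b had 3 of 6 and Kmt2e had 0 of 5. At the gene level, 4 of the 5 members had a peak in every list, against 48.8% of all genes, and Kmt2e was the exception. That background is not limited to genes with as many regions as the members, which had 5 to 15. Of all genes, 5.42% were called in the other 3 libraries and not in denervated 2, as Kmt2e was. The shares lacking another single library were 5.18% for innervated 1, 2.47% for innervated 2 and 3.46% for denervated 1.

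**Figure D1:**
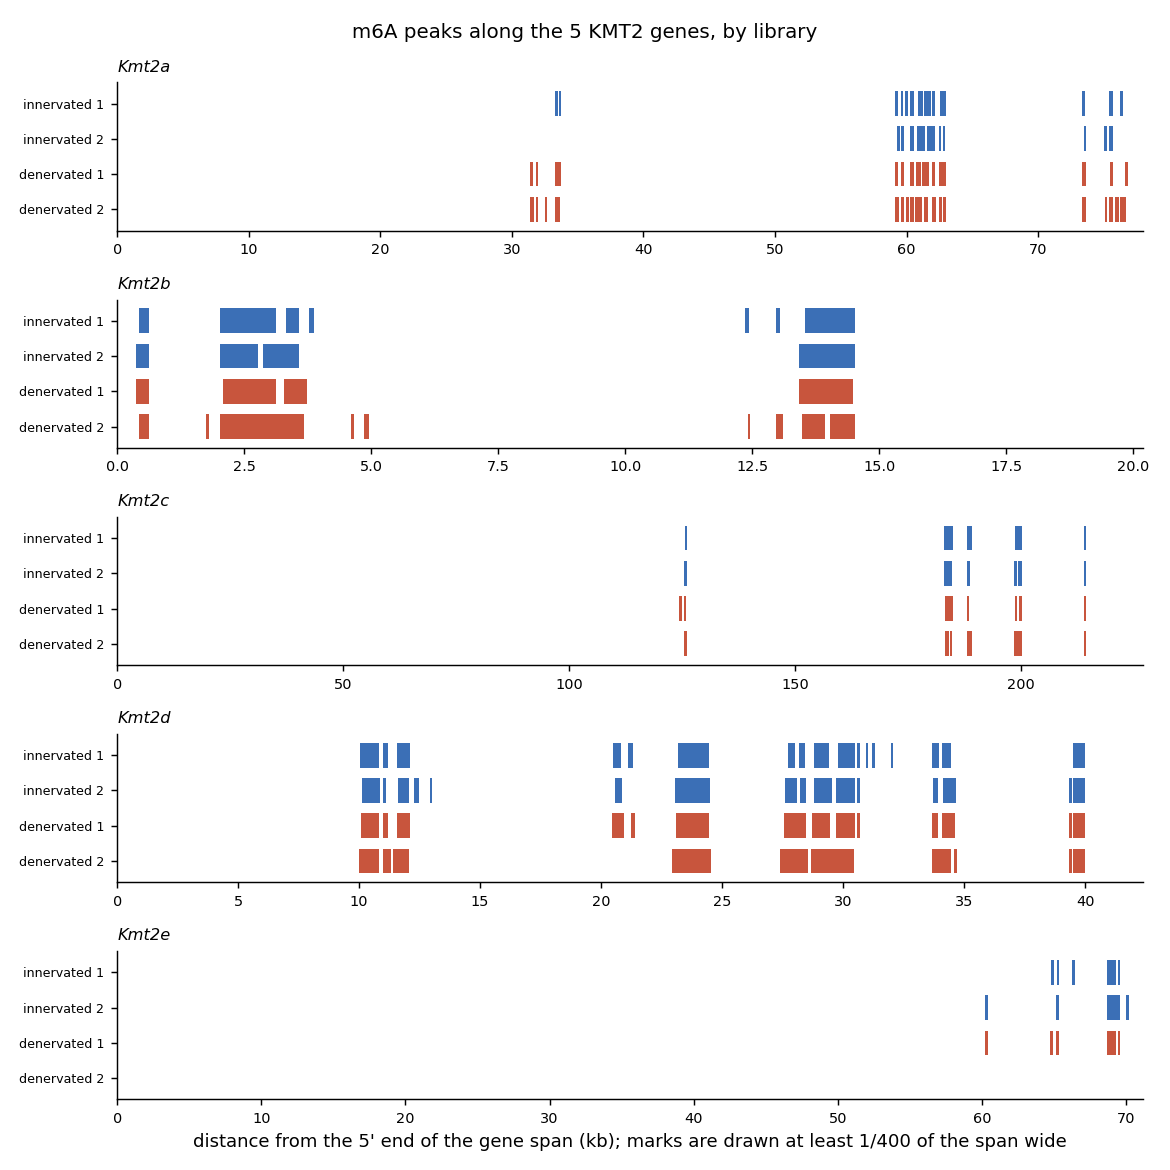
Peaks of the 5 KMT2 genes by library (rows; blue innervated, red denervated) against the distance from the 5′ end of the gene span in kb, introns included. Each mark is a block of a peak. Peaks gather in 17 stretches, most of which recur in every library, and Kmt2e has no mark in denervated replicate 2.

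Compared with other transcripts, Kmt2a, Kmt2c and Kmt2d carried many recurrent regions. Of the 5987 genes, 2 had more regions in all 4 libraries than Kmt2c, and 5 had more than Kmt2a and Kmt2d. With 3 such regions, Kmt2b was among 351 genes (5.86%) with at least that many. These ranks use the overlap of 1 base, count close regions separately and are not scaled by gene length. In Kmt2a, Kmt2c and Kmt2d, reciprocal overlap left 4, 8 and 6 such regions. Equal numbers of peaks per list left 6, 5 and 7, and joining peaks within 100 bases left 6, 7 and 5, in the same order. Ranks over all genes were not computed under those settings. By the number of peaks in the 4 libraries, the genes most like Kmt2c (11, 9, 10 and 10 peaks in innervated 1 and 2 and denervated 1 and 2) were Bod1l (10, 9, 9 and 10), Peak1 (11, 9, 11 and 11) and 9930021J03Rik (8, 8, 10 and 10), with summed absolute differences of 2, 2 and 4 peaks. For Kmt2d they were Cep350, Spen and Zfhx4, at 6, 6 and 8, and for Kmt2a they were Vcan, Spen and Igsf10, at 9, 10 and 11.

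The number of KMT2 peaks did not differ between groups beyond the spread between replicates. There were 49 and 40 peaks in the innervated lists and 45 and 43 in the denervated lists. The groups overlap, with means of 44.5 ± 6.36 and 44.0 ± 1.41 (SD, n = 2; exact permutation p = 1, two-sided). With 2 libraries against 2, this test cannot give a p below 0.333, so no difference in this design can reach significance.

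Bases covered by peaks gave another order of the libraries than peak counts. The 5 genes together had 16073 and 16860 covered bases in the innervated lists and 18015 and 18520 in the denervated lists. Both denervated values were higher (16470 ± 556 against 18270 ± 357, SD, n = 2; exact permutation p = 0.333, the smallest possible). The share of all covered bases that lay in KMT2 peaks was 0.534% and 0.476% in the innervated lists and 0.559% and 0.546% in the denervated lists. Without Kmt2a the groups overlapped (12960 and 14252 against 14354 and 13854 bases), while leaving out any other member kept both denervated lists higher. Among peaks with the smallest 50% of scores the groups overlapped too (4500 and 6896 against 6950 and 4897 bases), as they did among the largest 50% (11573 and 10414 against 11065 and 13623; exact permutation p = 0.667 for each). Among genes called in all 4 libraries, 15.6% had more covered bases in both denervated than in both innervated lists, and 17.2% had fewer, so separation of this kind was common.

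**Figure D2:**
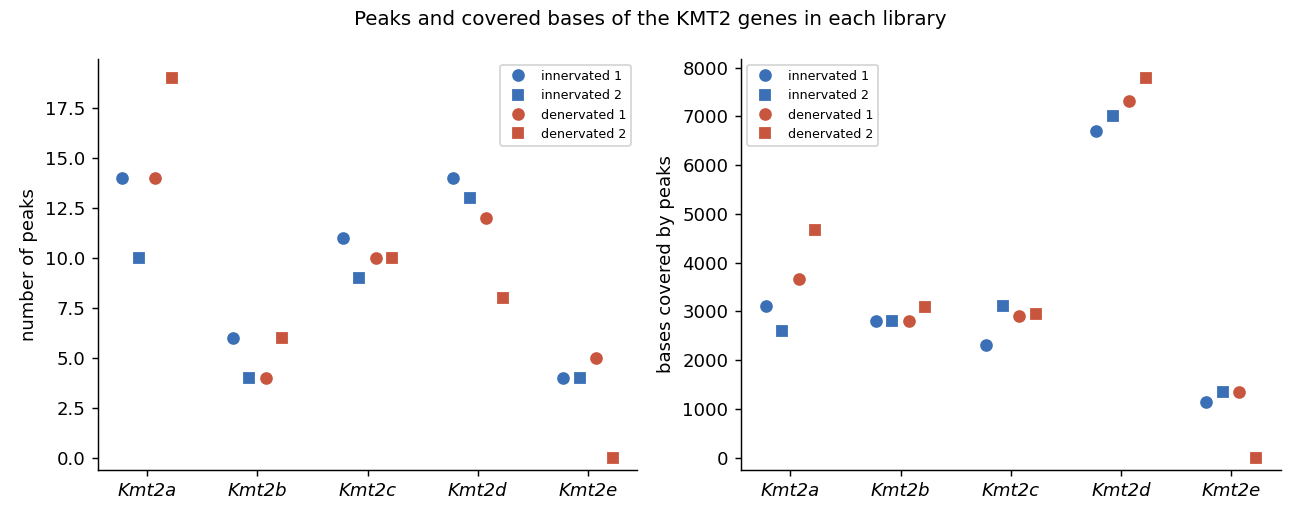
Number of peaks (left) and bases covered by peaks (right) of each KMT2 gene in each library; circles are replicate 1 and squares replicate 2, blue innervated and red denervated. Kmt2d has its fewest peaks (8) but its most covered bases (7798) in denervated replicate 2, and Kmt2e is at 0 there.

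Kmt2a encodes the founding member of the family, which maintains expression of homeobox genes. It held 14 and 10 peaks in the innervated lists and 14 and 19 in the denervated lists, which overlap between groups. They covered 3113 and 2608 bases against 3661 and 4666, so both denervated lists had more (exact permutation p = 0.333). Its gene span lies on the minus strand of chromosome 9 (44803355 to 44881352, mm10), and the 5′-most 40.2% of it held no peak.

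The densest part of Kmt2a was a stretch of 3898 bases that starts 59.1 kb from the 5′ end, on chromosome 9 from 44818367 to 44822264. It held 9, 7, 8 and 9 peaks in innervated 1 and 2 and denervated 1 and 2. Its covered bases were 2008, 2005, 2106 and 2358 in the same order. Of its 6 regions, 5 were called in all 4 libraries; reciprocal overlap left 4 such regions in the whole of Kmt2a, against 7. The region from 44820815 to 44821065 had the same limits in every library, the only KMT2 region to do so. The neighbouring region from 44819116 to 44820715 was split into 3, 2, 4 and 3 peaks at different places, and 31.5% of its bases were common to all 4 libraries. In the region from 44821964 to 44822264 the 4 libraries shared just 1 base, at 44822064, so its call in all 4 rests on the loosest possible overlap.

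The remaining Kmt2a peaks lay in 2 other stretches. A stretch near the 3′ end, from 44804654 to 44808052, held 2 regions called in all 4 libraries. Its covered bases were 753 and 603 in the innervated and 703 and 1404 in the denervated lists, so denervated 2 stood alone.

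The 5′-most Kmt2a stretch, from 44847602 to 44850000, was the single place where a KMT2 gene had group-specific regions. It held 2 and 0 peaks (352 and 0 bases) in the innervated lists and 3 and 5 peaks (852 and 904 bases) in the denervated lists. The regions from 44849401 to 44849551 and from 44849701 to 44850000 were called in both denervated lists and neither innervated list. These were 2 of the 46 KMT2 regions, a share close to the background of 3.67% of all regions, and 0 of 46 were innervated only, where it is 4.2%. The 2 denervated-only regions lay 149 bases apart and had equal scores within each list, so they do not give separate ranks. Their score percentiles were low in both lists, at 22.8 in denervated 1 and 15 in denervated 2, on a scale where 100 is the smallest score of the list. Another region, from 44847602 to 44848102, was called in innervated 1 and both denervated lists, with 352, 451 and 302 bases, and in innervated 2 no peak of the stretch was called.

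**Figure D3:**
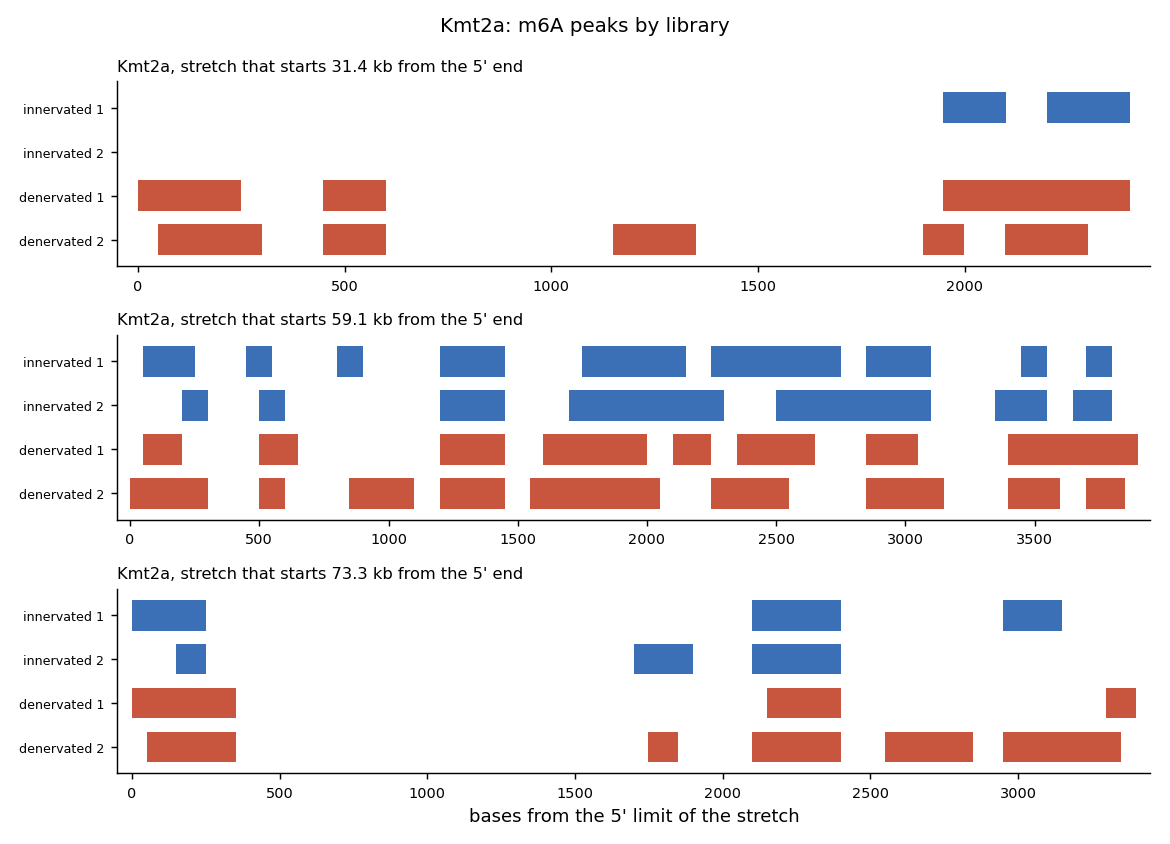
The 3 stretches of Kmt2a that hold its peaks, with bases from the 5′ limit of each stretch on the horizontal axis and a row per library (blue innervated, red denervated). In the top panel the first 600 bases hold peaks in both denervated lists and in neither innervated list; in the middle panel a peak of 251 bases has the same limits in all 4.

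Kmt2b, the closest relative of Kmt2a, had fewer but wider peaks. It held 6 and 4 peaks in the innervated lists and 4 and 6 in the denervated lists. They covered 2800 and 2798 against 2797 and 3101 bases, so 3 of the libraries lay within 3 bases of each other and denervated 2 was higher. Its minus-strand span of 20.2 kb on chromosome 7 (30568855 to 30589056) was the shortest of the family. Of the 20 peaks in the 4 lists, 5 were at least 1000 bases long.

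The Kmt2b regions in all 4 libraries were 3. The first, from 30588427 to 30588676, began 380 bases from the 5′ end of the span, and it was the KMT2 region closest to an annotated start. The second, from 30585328 to 30587300, covered 1350, 1450, 1499 and 1698 bases in innervated 1 and 2 and denervated 1 and 2. In denervated 2 it was a single peak joined across a gap of 225 bases, where the other lists had 2 peaks. The last, from 30574527 to 30575624, covered 999 and 1098 bases in the innervated and 1048 and 951 in the denervated lists. After it, the 3′-most part of the span held no peak in any list.

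Kmt2c, an enhancer methyltransferase with the longest span of the family (227.1 kb on chromosome 5, from 25271795 to 25498855, minus strand), had the most recurrent regions as deposited, 8. With equal numbers of peaks per list it had 5, fewer than Kmt2d with 7 and Kmt2a with 6. Kmt2c held 11 and 9 peaks in the innervated and 10 and 10 in the denervated lists. The covered bases were 2307 and 3102 against 2905 and 2955, which overlap between groups. The first 54.8% of the span held no peak, and the largest gap between neighbouring regions was 57.1 kb.

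The 8 recurrent Kmt2c regions fell in 5 stretches. The 5′-most was a region of its own from 25372917 to 25374536, with 250 and 450 bases in the innervated and 550 and 450 in the denervated lists. In denervated 1 the peak there crossed a gap of 1020 bases to a block of 47 bases. The 3 regions between 25314306 and 25315803 covered 653, 751, 804 and 751 bases in total in innervated 1 and 2 and denervated 1 and 2. The 3′-most region, from 25284397 to 25284996, covered 450 and 600 against 550 and 600 bases, and all 4 lists shared its 5′ limit at 25284996. The only Kmt2c region outside all 4 libraries, from 25299312 to 25299461, was called in innervated 2 alone.

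Kmt2d, which like Kmt2c encodes an enhancer methyltransferase, had the most covered bases of the family in every library. Its peaks covered 6707 and 7006 bases in the innervated lists and 7306 and 7798 in the denervated lists. Both denervated lists had more (6856 ± 211 against 7552 ± 348, SD, n = 2; exact permutation p = 0.333). The number of peaks ran the other way, with 14 and 13 in the innervated and 12 and 8 in the denervated lists (exact permutation p = 0.333). Among genes called in all 4 libraries, 6.46% had fewer peaks in both denervated than in both innervated lists, and 4.86% had more. The median Kmt2d peak was 376 and 500 bases long in the innervated lists and 551 and 925 in the denervated lists. Fewer peaks thus went with longer ones, and denervated 2 was the extreme of both. In that list 4.12% of all peaks were at least 1000 bases long, against 2.36% to 3.19% in the other lists (2.37% in denervated 1). The part of this list-wide difference in the Kmt2d values was not tested. The share of genes with longer median peaks in both denervated lists was not computed, so the Kmt2d lengths have no background.

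Kmt2d held the recurrent region with the largest union of bases, 1849, on chromosome 15 from 98843471 to 98845421, ahead of 1748 for the Kmt2b region from 30585328 to 30587300. It was called as 2 peaks in innervated 1, innervated 2 and denervated 1, with 1300, 1550 and 1550 bases. In denervated 2 it was a single unspliced peak of 1799 bases, the longest KMT2 peak. The region from 98849532 to 98851130 was a single unspliced peak in every list, of 1250, 1449, 1350 and 1599 bases in innervated 1 and 2 and denervated 1 and 2, and 78.2% of its bases were common to all 4. The 3′-most region, from 98834066 to 98834738, ended at 98834565 in innervated 1. In the other 3 lists it ran on across a gap of 123 bases to a second block of 23 bases, so that the same junction was crossed in each of them. The upstream stretch from 98861072 to 98864098, which starts 10.0 kb from the 5′ end, held 1552 and 1653 bases in the innervated and 1502 and 1850 in the denervated lists.

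Of the 11 Kmt2d regions, 4 had no peak in denervated 2, and 2 of these, next to each other, were called in more than 1 other list. The region from 98853147 to 98853647 covered 351, 301 and 501 bases in innervated 1, innervated 2 and denervated 1. That from 98852698 to 98852948 covered 201 and 151 bases in innervated 1 and denervated 1. Both had large scores in the lists that held them, with percentiles of 1.6 to 15.

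**Figure D4:**
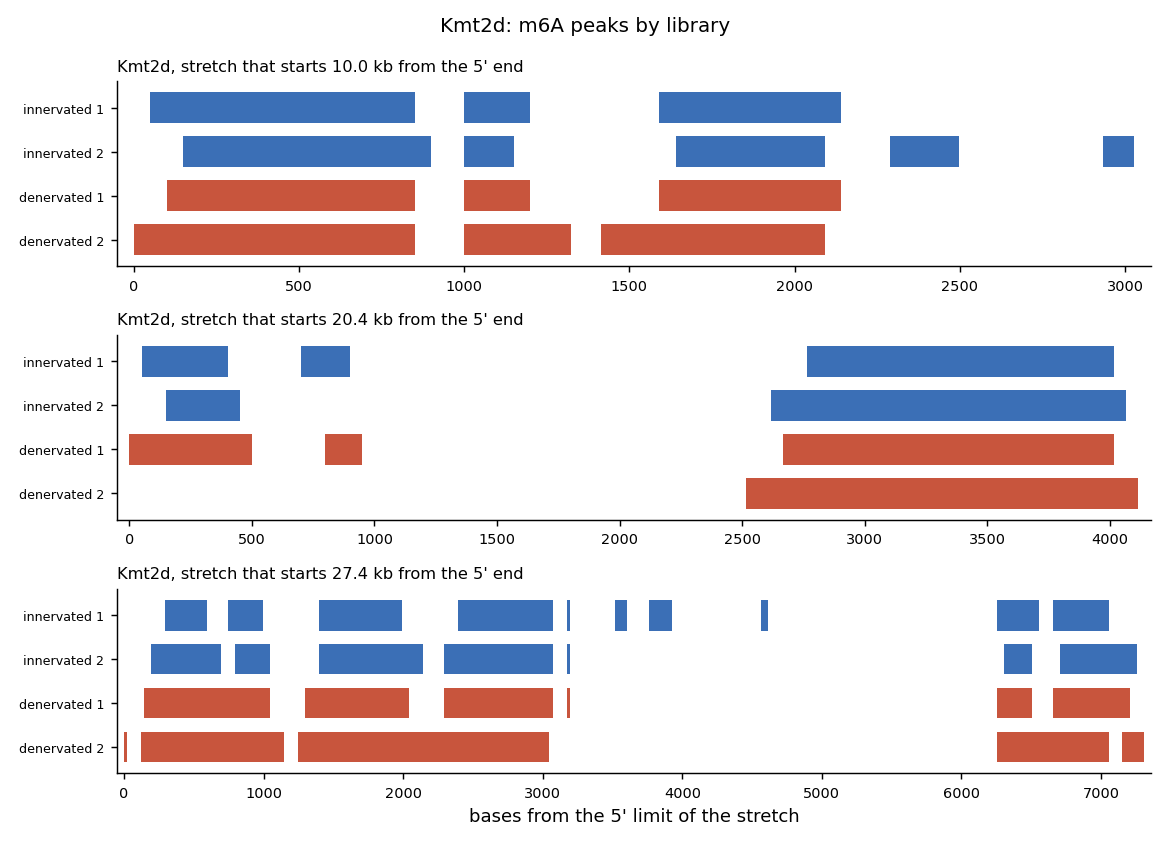
The 3 upstream stretches of Kmt2d, with bases from the 5′ limit of each stretch on the horizontal axis and a row per library (blue innervated, red denervated). In the bottom panel the row of denervated 2 has a peak of 1799 bases where each other list has 2 peaks; in the middle panel denervated 2 has no mark in the first 1000 bases.

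Most junction-crossing peaks were in Kmt2d, but as a share of its peaks they were about as common in Kmt2b. Of the 177 KMT2 peaks, 16 had more than 1 block. They were 10 of 47 peaks in Kmt2d and 4 of 20 in Kmt2b. Kmt2c had 1 of 40, Kmt2e 1 of 13 and Kmt2a 0 of 57. By library, such peaks were 8.16%, 7.5%, 6.67% and 14.0% of the KMT2 peaks in innervated 1 and 2 and denervated 1 and 2. Of all peaks they were 11.5%, 12.5%, 11.6% and 14.8%, in the same order. The largest number of blocks was 3, in a Kmt2d peak from 98842051 to 98843146 that was called in innervated 1 alone.

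Kmt2e, the divergent member, differed from the others in having no peak in denervated 2. It held 4 peaks in each innervated list, 5 in denervated 1 and 0 in denervated 2, and these covered 1146, 1346, 1346 and 0 bases. The groups overlap, because the denervated lists stood at both ends (exact permutation p = 1 for peaks and for bases). Of 294 genes with at least 4 peaks in each of the other libraries, 9 (3.06%) had none in denervated 2. The same count for a list with no peak was 4.08% for innervated 1, 1.76% for innervated 2 and 4.68% for denervated 1, so such a gap was uncommon but arose for each list.

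Where called, Kmt2e peaks began 84.5% of the way along the span, which runs on the plus strand of chromosome 5 from 23433036 to 23504235. The widest region, from 23501694 to 23502638, covered 796 and 896 bases in the innervated lists and 796 in denervated 1. In innervated 1 and denervated 1 it was the same pair of peaks, with equal limits. The region from 23498182 to 23499368 was also called in these 3 lists, with 150, 101 and 101 bases, and in innervated 1 it crossed a gap of 987 bases. The 5′-most region, from 23493229 to 23493477, was called with equal limits in innervated 2 and denervated 1.

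At the other end of Kmt2e, a peak named for 5031425E22Rik overlapped the Kmt2e span on the opposite strand in all 4 lists, denervated 2 included. It ran from 23433006 to 23434153, or to 23434203 in innervated 2. Its score percentiles were 80.2 and 74.0 in the innervated and 67.7 and 62.6 in the denervated lists. Among genes called in all 4 libraries, 17.5% had a lower median percentile in both denervated than in both innervated lists. RefSeq promoter windows (GRCm38.p6) were matched for Kmt2a, Kmt2c and Kmt2d of the 5 members, and 0 KMT2 peaks lay in them. The window of 5031425E22Rik, at chr5:23433287-23433586 on the minus strand, lay inside this peak in all 4 libraries, 251 bases past the annotated Kmt2e start. It is printed because it lay inside a peak in every library beside the start of Kmt2e, whose own peaks were missing from denervated 2. Capitals mark the match to an m6A consensus pentamer on the strand of 5031425E22Rik.
5031425E22Rik: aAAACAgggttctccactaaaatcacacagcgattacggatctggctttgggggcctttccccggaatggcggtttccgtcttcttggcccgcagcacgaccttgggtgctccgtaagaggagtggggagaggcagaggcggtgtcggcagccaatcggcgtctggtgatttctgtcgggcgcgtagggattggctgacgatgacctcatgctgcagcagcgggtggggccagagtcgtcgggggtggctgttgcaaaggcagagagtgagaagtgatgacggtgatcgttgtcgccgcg
The 12 pentamers searched on both strands began with GGAC, with GAAC, with AGAC or with AAAC and ended in A, C or T. The window had 1 match on that strand, AAACA at positions 2 to 6 from its 5′ end, and 2 on the other strand. Of the 32851 windows of this length, 96.5% had at least 1 match on the gene's strand, with a median of 4, and 99.7% had one on either strand. A match is a description of letters, not a methylated site.

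The spacing of KMT2 peaks was tight within stretches. Of the 41 gaps between neighbouring regions, 18 were under 200 bases, 9 of them in Kmt2a. Within a list, the smallest gap between neighbouring KMT2 peaks was 98 bases in every library, and the median gap was 336 and 498 bases in the innervated and 469 and 299 in the denervated lists. The limits of peaks of the same region in different lists differed by a multiple of 50 bases (within 2 bases) in 619 of 662 comparisons (93.5%), of which 137 were equal. Positions were thus resolved in steps of about 50 bases, and shifts of that size between libraries cannot be read as differences in place.

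Peaks close together shared scores, while a stretch could hold several. Of 158 pairs of neighbouring KMT2 peaks, 86 (54.4%) had exactly equal scores, against 77.3% of such pairs in all genes. Under 200 bases apart, 54 of 56 KMT2 pairs were equal. The 177 peaks held 20 and 24 distinct scores per gene and list in the innervated lists and 28 and 17 in the denervated lists, so neighbouring peaks often do not give separate ranks.

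By rank, KMT2 peaks lay mostly on the large-score side of their lists although they recurred often. The median percentile was 31.3 and 32.5 in the innervated lists and 34.3 and 30.1 in the denervated lists, where all peaks of a list have a median of 50 by construction. The groups overlap (difference 0.287, exact permutation p = 1). In all, 32 of the 177 peaks (18.1%) were in the 50% of their list with the smallest scores. The highest percentiles were 67.1, 64.0, 72.7 and 62.2 in innervated 1 and 2 and denervated 1 and 2. What the score measures is not given in the sources used here; its range, 0 to 0.023, is that of a p-value, but no reading of strong or weak is made.

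Members differed in rank. Kmt2b had 12 of 20 peaks in that 50%, Kmt2d 11 of 47, Kmt2c 7 of 40, Kmt2e 1 of 13 and Kmt2a 1 of 57. Peaks with equal scores count separately here. Kmt2b held just 2 distinct scores in each innervated list and 3 in each denervated list, and Kmt2a held 4 and 3 against 7 and 4. The median percentile of Kmt2b was 63.4 and 58.4 in the innervated and 44.9 and 45.6 in the denervated lists. Both denervated lists were lower (exact permutation p = 0.333), as for 17.5% of the genes called in all 4 libraries. That of Kmt2d was 35.6 and 32.3 in the innervated and 48.9 and 42.4 in the denervated lists. Both denervated lists were higher (exact permutation p = 0.333), as for 17.4% of genes. Kmt2a stood at 31.3 and 24.8 against 34.3 and 28.2, and Kmt2c at 10.2 and 38.0 against 23.5 and 27.3, and in both genes the groups overlap. Kmt2e stood at 30.1 and 38.0 in the innervated lists and 22.8 in denervated 1.

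**Figure D5:**
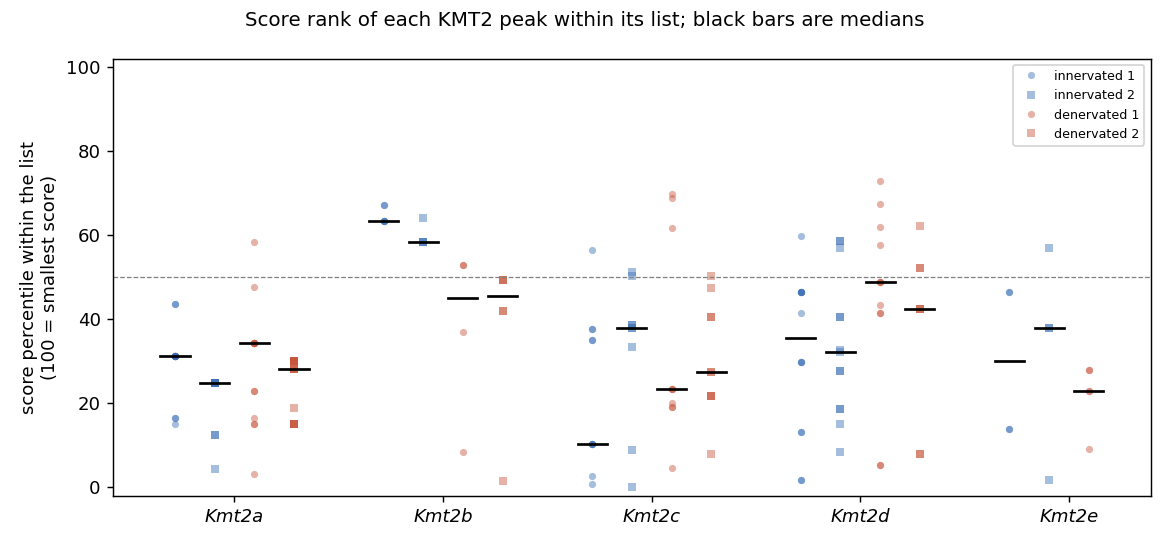
Score percentile within its list (vertical axis, 100 is the smallest score) of every KMT2 peak, by gene and library; circles are replicate 1, squares replicate 2, blue innervated, red denervated, black bars medians, the dashed line 50. Darker marks are peaks with equal scores. Kmt2b has its medians above 50 in the innervated lists (63.4 and 58.4) and below in the denervated lists (44.9 and 45.6).

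Regions called in all 4 libraries were wider than the others and had somewhat smaller scores, judged by the smallest score of a region in each list. Their union of bases was 201 to 1849, with a median of 600, against 100 to 945 with a median of 249 for the other 21 regions. A wide region has more bases by which to overlap, so width and recurrence are not independent. The percentile of a region in a list was that of its smallest score there, which can favour regions with several peaks in a list. Averaged over the lists that held the region, this mean percentile was 14.2 to 62.9 with a median of 34.0 for recurrent regions. For the other regions it was 1.4 to 63.4 with a median of 20.4. The highest mean percentile of a recurrent region, 62.9, was that of the unspliced Kmt2d region from 98849532 to 98851130. On average a recurrent region was not called over the same bases: the bases common to all 4 libraries were a median of 57.3% of the union.

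Overlap of covered bases between libraries did not follow the groups in the KMT2 genes. The Jaccard index, the common bases over the union of bases, was 0.629 for the innervated pair and 0.645 for the denervated pair. Between groups it was 0.691 for innervated 1 and denervated 1, 0.692 for innervated 2 and denervated 1, 0.589 for innervated 1 and denervated 2 and 0.593 for innervated 2 and denervated 2. Denervated 1 was thus closest to both innervated lists, and the pairs between groups that hold denervated 2 were the lowest. Over all peaks the order was another. The index was 0.579 for the innervated pair and 0.559 for the denervated pair, both above the 0.528 to 0.551 between groups. Without Kmt2e, which has no base in denervated 2, the KMT2 index was 0.644 and 0.687 within groups and 0.622 to 0.693 between groups.

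Genes that work with or against the KMT2 enzymes were also counted, with no test. Of 17 subunits and SET1 relatives, 4 had a peak in all 4 libraries, 5 in some, 1 in the denervated lists only and 7 in none. That is 40.0% of the 10 with any peak, against the 48.8% over all genes with a peak. Setd1b, a catalytic H3K4 methyltransferase of the related SET1 complexes, had 8 and 11 peaks in the innervated and 7 and 9 in the denervated lists and 5 regions in all 4. Hcfc1, a host cell factor bound by several of these complexes, had 2 such regions, and Ncoa6 and Pagr1a, subunits of the KMT2C and KMT2D complex, had 1 each. Hcfc2, the relative of Hcfc1, had 1 peak in each denervated list and 0 in each innervated list, a pattern of 3.41% of all genes (innervated only, 3.14%). Of the core subunit genes, which all KMT2 enzymes share except the divergent member, Wdr5, Ash2l and Dpy30 had no peak and Rbbp5 had 2 in innervated 1 alone. Men1 and Kdm6a also had none. These genes were named after their values were seen.

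Of 28 other lysine methyltransferase genes, 8 had a peak in all 4 libraries (44.4% of the 18 with any peak), 10 in some, 0 in a single group only and 10 in none. Nsd1, which methylates lysine 36 of histone H3, and Ash1l and Prdm2 had 5 regions in all 4 libraries each, and Setd2, the main enzyme for trimethylation of that lysine, had 2. Of 6 H3K4 demethylase genes, 0 were called in all 4 libraries and 5 in some. These were Kdm1b, Kdm5a, Kdm5b, Kdm5c and Kdm5d, named after their values were seen, with at most 3 peaks in a list.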

How the data were processed

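The authors deposited 4 peak lists, 1 for each pair of IP and input library, without pooling, as the file names show. Each peak carries a value named score per the file headers. The sources used here do not define it and name no peak caller or cutoff. STAR 2.4.2a, ChIPseeker and the mm10 build come from the submitters' processing notes. No depth is known for any library, so no precision can be given for a call.

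Peaks were linked into regions by at least 1 shared base of their blocks on the same strand. Within each list the scores were turned into percentiles, 100 for the smallest, and ties took their mean rank. Regions no more than 2000 bases apart formed a stretch, a limit set after the data were seen. Gene spans came from RefSeq (GRCm38.p6, the assembly of mm10), matched for 5973 of 5987 names. Exon and UTR annotation and genome sequence were not used here, so the sequence of the peaks is not printed. Two-sided exact permutation tests were computed over 2 against 2 libraries with Python 3.11.15. Linking was tested on simulated peaks set far apart on each strand. Some simulated peaks had more than 1 block. No simulated region was broken into several peaks in a list or lay close to another on its strand, so the test does not cover dense stretches. Group-specific means called in both libraries of a group and in neither of the other.

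The members and lists were chosen with earlier results of these data known. Named genes were the members; of each list, up to 4 genes with the most regions in all 4 libraries and every group-specific gene; and, for members with at least 5 peaks in every list, the 3 genes with the smallest summed difference in peaks. Alternatives were other score limits, overlaps, assignments and leaving out libraries.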

Additional observations from a re-analysis of the deposited data

How the results depend on the processing

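The number of recurrent KMT2 regions depended on the score limit, and their share also on the overlap rule. Of 25 regions in all 4 libraries, 1 was left when lists were limited to their smallest 50% of scores and 15 when limited to their largest 50%. Denervated-only regions were then 0 and 4, innervated-only regions 2 and 1, associated subunits in all 4 libraries 1 and 2, and other methyltransferases 4 and 4. The shares over all regions or genes under these score limits were not computed, so these counts have no background. With reciprocal overlap of at least 50%, 21 of 75 regions (28.0%, against 20.3% of all regions) were in all 4 libraries, 4 of them in Kmt2a, and 1 was innervated only. Equal numbers of peaks per list (9327) and joining peaks within 100 bases gave 21 regions each (5 in Kmt2c with equal numbers), and whole spans and assignment by gene span gave 25. The cause of these shifts was not tested, except that both limits leave fewer peaks.

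The difference in KMT2 peaks between groups (−0.5 in the full lists) was 1 with the largest scores and 0.5 with equal numbers of peaks. The difference in median percentile (0.287) was −3.93 with the smallest scores, −1.28 with the largest, −2.44 with equal numbers and −0.237 with each run of equal scores counted once, the last chosen after seeing the data, like the difference of −3 in peaks after joining. The difference in covered bases (1800) kept its sign in all settings run, with 226 to 2190, but the groups overlapped under both score limits (226 and 1350, exact permutation p = 0.667).

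Leaving out each library in turn moved the difference in peaks from −5 to 4, in bases from 1410 to 2190 and in median percentile from −1.77 to 2.34. Regions in all remaining libraries were 25 to 31, denervated-only regions 2 to 5, innervated-only regions 0 to 3, subunits 4 to 6, other methyltransferases 8 to 10 and H3K4 demethylases 0 to 1. Without denervated 2, Kmt2d had 11 and Kmt2e 2 such regions; without innervated 2, Kmt2a had 10. Leaving out a library loosens both definitions, and the shares over all regions or genes were not computed without a library.

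With the replicate number as a block the differences stayed −0.5 peaks, 1800 bases and 0.287, and the exact sign-flip test over 2 pairs cannot go below 0.5. Deviations of same-numbered libraries correlated at 0.0144 over 5987 genes, which does not show pairing. The controls are opposite legs, so the groups may share animals, but the labels do not tie numbers to animals.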

Other observations

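Like Kmt2e, the SET1 gene Setd1a had several peaks in 3 libraries and none in the remaining one. Setd1a, the catalytic relative of Setd1b, had 5 and 0 peaks in innervated 1 and 2 and 4 and 7 in denervated 1 and 2. It was singled out after its values were seen. Of 284 genes with at least 4 peaks in each of the other 3 libraries, 5 (1.76%) had none in innervated 2. Among the other methyltransferase genes, Prdm16 had 0 and 2 peaks in the innervated and 6 and 0 in the denervated lists, and Smyd1, a muscle methyltransferase, had 2 and 0 against 2 and 0; both were also singled out after the fact.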
